A study of Mus musculus with 6 samples.

Results

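The mitochondrial ribosomal protein genes described here are the 77 genes whose symbols start with Mrpl or Mrps followed by a number, out of 24346 genes listed with a value in the 6 libraries. Of these, 48 carry the Mrpl symbol of the large subunit and 29 the Mrps symbol of the small subunit. All 77 were above the minimum level used for testing, so none was left out. Mitochondria have their own ribosome, which translates only the few messages of the mitochondrial genome, nearly all of them for core subunits of the respiratory chain and the ATP synthase. Its RNAs come from the mitochondrial genome, but every one of its proteins is encoded in the nucleus, made on cytosolic ribosomes and imported. The small subunit reads the codons and the large subunit joins the amino acids, and in resting B lymphocytes the content of mitochondria is known to grow when the cells are activated.

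The cells were follicular B cells sorted from the spleen as B220+ CD93- CD21lo CD23hi, taken from mice of 8 weeks. The WT group was 3 libraries from C57BL/6 control mice. The G9gl group was 3 libraries from mice homozygous for knocked-in heavy and light chain genes, which encode the germline version of an antibody to double-stranded DNA that came from a patient with lupus. The B cells of the knock-in line thus carry the same receptor genes, unlike the mixed receptors of WT cells, and the study used the line to examine anergy, the unresponsive state of self-reactive B cells. No label says that a group's 3 libraries are from different mice, so p-values measure the spread between these libraries, which may be technical.

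Total RNA was copied into full-length cDNA by a method that does not keep strand, and the values are FPKM, fragment counts scaled by the length of the transcript and the size of the library. Summed over all genes the FPKM values came to 603054 to 611557 in WT and to 657759 to 671533 in G9gl, with no overlap, while the median FPKM of the tested genes was 15.98 to 16.14 in WT and 15.48 to 15.79 in G9gl. The step between low FPKM values gave an estimated 10650000 to 12540000 counted fragments per library. The B cell genes were abundant, with Cd79a at a mean of 2497 FPKM in WT and 2213 FPKM in G9gl, but 5 of the 10 listed were called lower (Cd79a, Cr2, Fcer2a, Ms4a1 and Pax5) and 2 higher (Blk and Cd22). Of 4 tested plasma cell genes, Jchain and Sdc1 were called higher and Irf4 lower. Macrophage markers summed to 21.7 to 28.5 FPKM in WT and 52.5 to 61.3 FPKM in G9gl, and 8 of the 10 tested were called higher, although Fcgr1 and Marco were near 0. Genes of dividing cells summed to 19.6 to 25.4 FPKM in WT and 31.0 to 43.2 FPKM in G9gl, with 5 of 7 tested called higher. Red cell markers summed to 41.6, 42.3 and 43.5 FPKM in WT and 222, 68.8 and 61.5 FPKM in G9gl, and neutrophil markers to 7.88, 4.82 and 2.11 FPKM in WT and 35.5, 15.2 and 18.3 FPKM in G9gl. Both were higher in every G9gl library, and most of all in G9gl replicate 1. The part of these cells in the results below was not tested, and in bulk RNA fewer cells of a type and less RNA per cell cannot be told apart.

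The mitochondrial ribosomal protein genes as a group lay slightly higher in G9gl than in WT follicular B cells on the FPKM scale. Of the 77 genes, 10 rose and none fell, where called means an adjusted p under 0.05 in limma, with Benjamini-Hochberg adjustment over all 10122 tested genes. Those 10 are 13% of the members, and 11.8% of all tested genes were called higher, so the count of called members was close to the background. No member fell, where 11.6% of all tested genes were called lower. At an unadjusted p under 0.05 in limma, 22 members were higher and 0 lower. The share of all tested genes at that threshold was not counted, so these counts have no background beside them. The count of members called higher was 5 without WT replicate 2 and 5 without G9gl replicate 2. It was 6 without G9gl replicate 3 and 13 without G9gl replicate 1. The share of all tested genes called higher was then 8.17%, 8.43%, 9.27% and 11.2%, in that order. G9gl replicate 1 was the library highest in red cell and neutrophil markers, and whether this bears on the count was not tested. The largest rises were in Mrpl52, a large subunit protein, and in Mrps9 and Mrps6, both of the small subunit.

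The fold changes of the members leaned to one side more than the calls did. The log2 fold change, taken on log2(FPKM + 1), was above 0 for 65 members and below 0 for 12. That is 84.4% above 0, where 49.7% of all tested genes were. The median member stood at 0.10 and the median of all tested genes at 0.00, and the quartiles of the members were 0.04 and 0.19. In 34 members the difference was under 0.1 in either direction, and in 6 it was 0.3 or more. The standard error of a member's log2 fold change ran from 0.05 to 0.17. Its median of 0.08 was close in size to the median log2 fold change of 0.10.

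**Figure D1:**
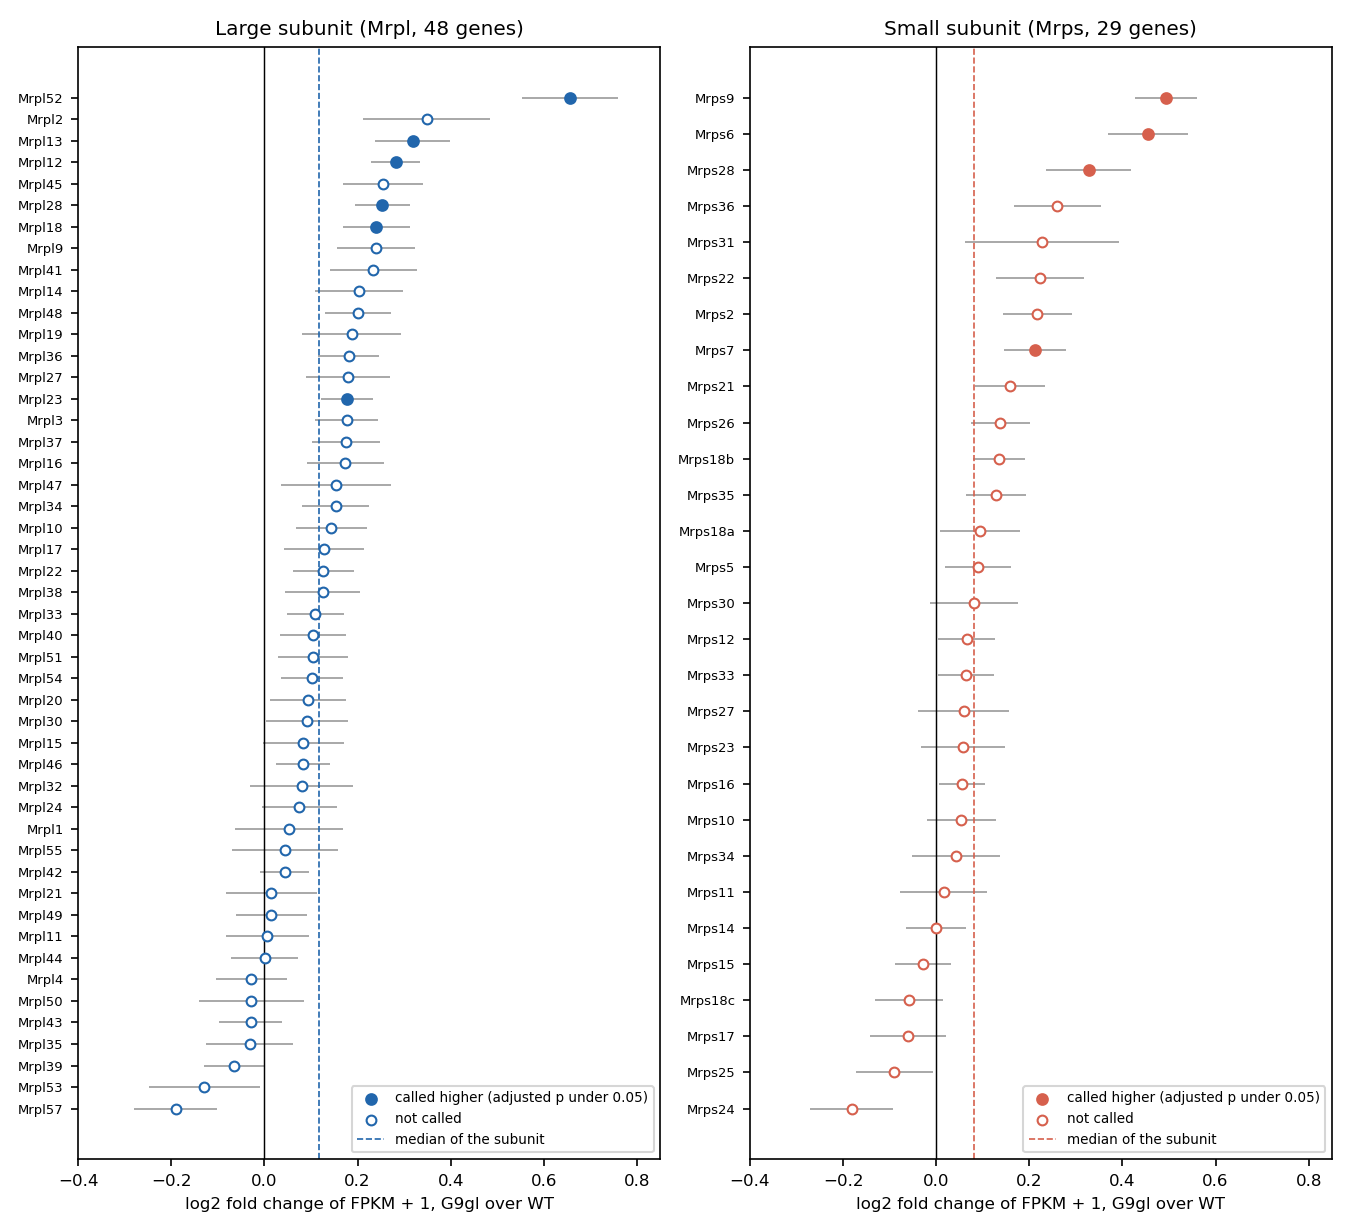
Log2 fold change of FPKM + 1, G9gl over WT, of each mitochondrial ribosomal protein gene, with a panel for each subunit, filled points for called members, lines for the limma standard error and a dashed line at the subunit's median. Called members run from 0.18 to 0.66, and the 67 others, shown as open points, lie between -0.19 and 0.35.

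All 3 G9gl libraries lay above all 3 WT libraries in 24 members, or 31.2%, against 20.3% of all tested genes. The opposite order held in 3 members, Mrpl39, Mrpl57 and Mrps25, or 3.90%, against 20.5% of all tested genes. In the other 50 members the groups overlapped.

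The direction of the whole group depended on the scale. The summed FPKM of the 77 members was 4266, 4062 and 4253 in the WT libraries and 4525, 4711 and 4548 in the G9gl libraries, so every G9gl sum was above every WT sum. As a share of all FPKM in the library these sums were 0.698%, 0.674% and 0.699% in WT and 0.674%, 0.703% and 0.692% in G9gl. The shares overlapped, and their means were 0.690% ± 0.0142 in WT and 0.689% ± 0.0147 in G9gl (SD, n = 3 each). When each library was rescaled to the same total, as TPM does, 33 members were above 0 and 44 below. On that scale 3 members were called higher (Mrpl52, Mrps6 and Mrps9) and 3 lower (Mrpl39, Mrpl57 and Mrps24), and 730 of all tested genes were called higher and 2493 lower. The share of calls that were higher was 22.6% there and 50.4% on the FPKM scale. TPM moved the median of all tested genes to -0.13 and that of the members to -0.03, so the members stood 0.10 above the median gene on the TPM scale and 0.11 on the FPKM scale.

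**Figure D2:**
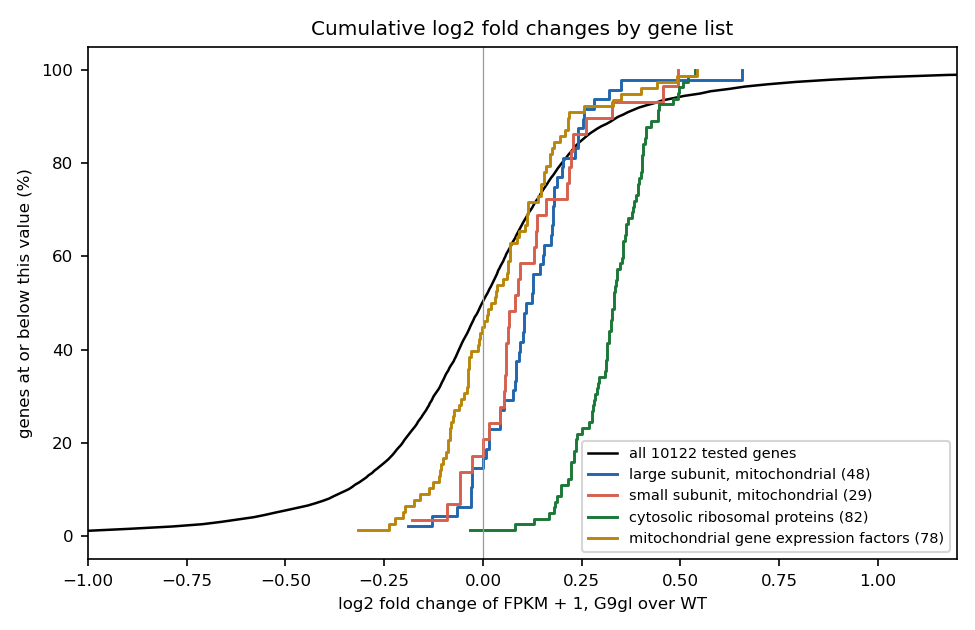
Cumulative percent of genes by log2 fold change of FPKM + 1, G9gl over WT, for all tested genes, the large and small subunit members, the cytosolic ribosomal protein genes and the factors of mitochondrial gene expression. The subunit curves, with medians of 0.12 and 0.08, lie between that of all genes (0.00) and that of the cytosolic ribosomal proteins (0.33) over most of their range.

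Among the large subunit genes, 6 of 48 rose, or 12.5%, close to the 11.8% of all tested genes called higher. Above 0 lay 41 of them, or 85.4%, against 49.7% of all tested genes. Mrpl52 encodes a protein of the large subunit that bacterial ribosomes lack. Its FPKM was 150.8, 116.3 and 112.1 in WT and 185.9, 203.1 and 205.6 in G9gl. All 3 G9gl values were higher than any WT value, and WT replicate 1 stood above the other WT libraries. The means were 126.4 ± 21.2 FPKM in WT and 198.2 ± 10.7 FPKM in G9gl (SD, n = 3 each), a 1.58-fold difference with a log2 fold change of 0.66 ± 0.10 (SE) and an adjusted p of 0.00182 in limma. The gene lies on the plus strand of chr14:54426909-54429756 in mm10, and with Mrps9 and Mrps6 it was called under all 17 other settings tried.

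Mrpl12 encodes the stalk protein of the large subunit, the flexible arm to which translation factors bind. Its FPKM was 84.4, 83.7 and 87.8 in WT and 102.2, 107.3 and 102.3 in G9gl, 2 narrow groups with a clear gap. That is a 1.22-fold difference, 0.28 ± 0.05 (SE) in log2, at an adjusted p of 0.00481 in limma. It lies at chr11:120484613-120489065. The other stalk genes, Mrpl10 and Mrpl11, did not pass the test.

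Mrpl28 encodes a core protein of the large subunit with a bacterial counterpart. It stood at 58.6, 61.8 and 62.1 FPKM in WT and 72.5, 69.7 and 75.9 FPKM in G9gl, again with no overlap. In log2 the difference was 0.25 ± 0.06 (SE) and the adjusted p 0.0137 in limma, and the call was lost without G9gl replicate 3. Its position is chr17:26123500-26126613.

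Mrpl13, Mrpl18 and Mrpl23 also encode proteins with bacterial counterparts, and each call was lost when any of several libraries was left out. Mrpl13 stood at 44.0, 38.6 and 47.7 FPKM in WT and at 52.5, 55.5 and 54.6 FPKM in G9gl (chr15:55534094-55557748). The WT values varied more than the G9gl values, and the groups did not overlap. The difference of 0.32 ± 0.08 (SE) in log2 had an adjusted p of 0.0193 in limma, and its call was lost without WT replicate 2, G9gl replicate 2 or G9gl replicate 3.

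The Mrpl18 protein sits in the central protuberance, the crown of the large subunit, where its bacterial counterpart binds the 5S RNA. Its FPKM was 92.0, 82.8 and 87.2 in WT and 94.6, 110.6 and 105.3 in G9gl (chr17:12911349-12916345). G9gl replicate 1 came close to the highest WT value. For Mrpl18 limma gave 0.24 ± 0.07 (SE) in log2 and an adjusted p of 0.038, its call lost without WT replicates 2 or 3 or G9gl replicates 2 or 3.

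Mrpl23, whose protein lies at the rim of the tunnel through which the new chain leaves, was the second most abundant member. It stood at 173.4, 175.0 and 186.6 FPKM in WT and 191.9, 205.4 and 208.5 FPKM in G9gl (chr7:142532686-142540747). The lowest G9gl value was just above the highest WT value. The log2 fold change of 0.18 ± 0.06 (SE) was the smallest among the called members, with an adjusted p of 0.0455 in limma, its call lost without WT replicates 1 or 2 or G9gl replicates 2 or 3.

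Among the small subunit genes, 4 of 29 rose, or 13.8%, close to the 11.8% of all tested genes called higher. Above 0 lay 24 of them, or 82.8%, against 49.7% of all tested genes. Mrps9 encodes a protein of the head of the small subunit, whose bacterial counterpart touches the tRNA in the peptidyl site. Its FPKM was 17.7, 18.3 and 18.3 in WT and 25.1, 26.3 and 26.3 in G9gl. Both groups were tight and the gap between them was many times their spread. The means were 18.1 ± 0.340 FPKM and 25.9 ± 0.663 FPKM (SD, n = 3 each), 1.41-fold, with a log2 fold change of 0.49 ± 0.07 (SE) and an adjusted p of 0.000807 in limma. The gene lies at chr1:42851233-42905683 on the plus strand.

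Mrps6 encodes a protein of the platform of the small subunit. Its FPKM was 18.4, 18.98 and 21.2 in WT and 25.2, 26.6 and 29.5 in G9gl (chr16:92058270-92112227). The G9gl libraries were all higher. The difference was 1.37-fold, a log2 fold change of 0.45 ± 0.09 (SE) with an adjusted p of 0.00466 in limma.

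The remaining pair of called small subunit genes, Mrps28 and Mrps7, passed less firmly. Mrps28 stood at 54.1, 55.6 and 67.8 FPKM in WT and 70.1, 80.1 and 72.6 FPKM in G9gl (chr3:8802146-8923918), and WT replicate 3 came close to the lowest G9gl value. The difference was 0.33 ± 0.09 (SE) in log2, adjusted p 0.0305 in limma, its call lost without WT replicates 1 or 2 or G9gl replicates 2 or 3. Mrps7, a head protein near the path of the messenger RNA, stood at 56.7, 58.0 and 58.2 FPKM in WT and 71.5, 68.1 and 61.5 FPKM in G9gl (chr11:115603925-115608036). G9gl replicate 3 lay nearer to WT than to the other G9gl libraries. Its difference was 0.21 ± 0.07 (SE) in log2, adjusted p 0.0471 in limma, and the call was lost without any single library other than G9gl replicate 3.

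**Figure D3:**
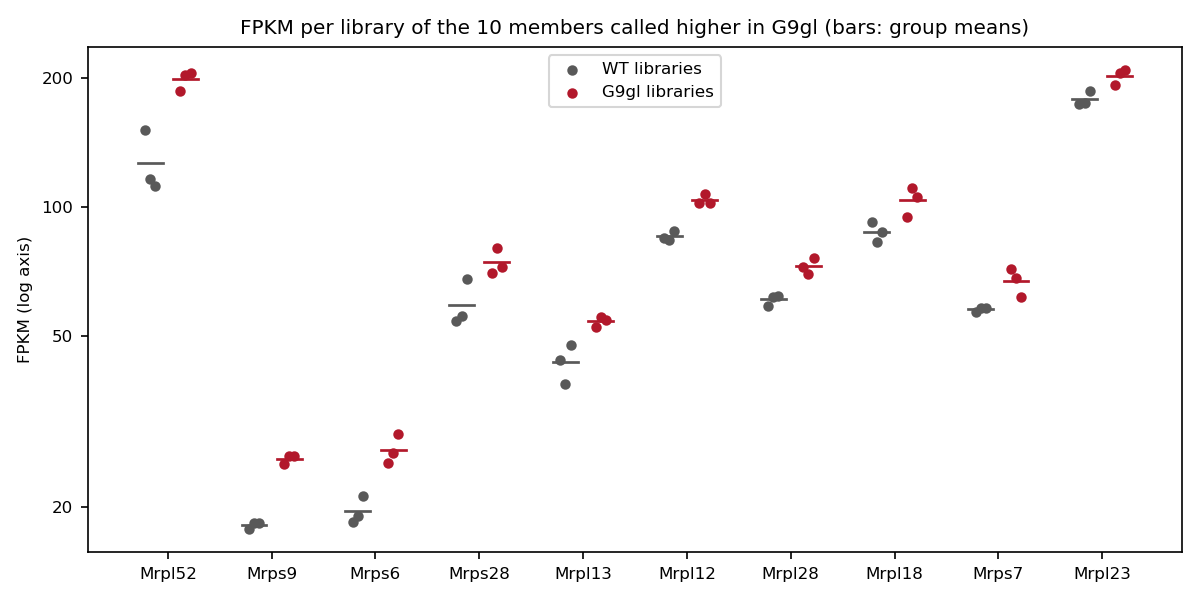
FPKM in each library, on a log axis, of the 10 members called higher in G9gl, in order of fold change, with a bar at each group mean. In every one of the 10 the 3 G9gl points lie above the 3 WT points, with a wide gap for Mrps9 and Mrps6 and a narrow one for Mrpl23 and Mrps7.

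Close below the threshold were Mrpl45, Mrps2, Mrpl9 and Mrpl48, with adjusted p-values of 0.0599, 0.0621, 0.068 and 0.0725 in limma and log2 fold changes of 0.25, 0.22, 0.24 and 0.20. Mrpl45, whose protein ties the ribosome to the inner membrane, passed with quantile normalization, with array weights and without WT replicate 3. Mrpl2, a core protein of the peptide-joining centre, had the highest fold change among the members that were not called. It stood at 33.5, 35.3 and 51.5 FPKM in WT and 50.9, 49.96 and 50.5 FPKM in G9gl. WT replicate 3 was level with G9gl, and the other WT libraries were well below it. This gave a log2 fold change of 0.35 and an adjusted p of 0.096 in limma. Without WT replicate 3 they were 0.54 and 0.00157.

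At the other end, Mrpl57, a protein found only in mitochondrial ribosomes, had the lowest log2 fold change, -0.19 with an adjusted p of 0.156 in limma. Its FPKM was 19.7, 18.96 and 18.7 in WT and 17.3, 18.0 and 14.7 in G9gl, where every G9gl library was lower. Mrps24, a small subunit head protein with a bacterial counterpart, stood at 79.7, 72.4 and 76.6 FPKM in WT and 58.3, 74.7 and 69.3 FPKM in G9gl. The groups overlapped, and limma gave a log2 fold change of -0.18 and an adjusted p of 0.176. Mrpl39 was at 30.2, 29.3 and 29.7 FPKM in WT and 29.01, 28.9 and 27.2 FPKM in G9gl, a log2 fold change of -0.07 with an adjusted p of 0.501. These are the 3 members called lower on the TPM scale.

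The members differed in level from each other far more than between genotypes. The mean FPKM over the 6 libraries ranged 34.1-fold, from 7.10 to 242.1, with a median of 43.8. It was 10 FPKM or more in 73 members and 100 FPKM or more in 9. The spread between libraries of a group was small, with a median coefficient of variation of 6.96% in WT and 5.72% in G9gl.

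Mrps21, a small subunit protein with a bacterial counterpart, was the most abundant, at 238.8, 201.3 and 247.2 FPKM in WT and 262.0, 254.1 and 248.96 FPKM in G9gl, with an adjusted p of 0.162 in limma. Mrpl23 came next, then Mrps18c and Mrps16. Mrps18c, 1 of 3 related genes for the same bacterial protein family, was at 182.6, 152.0 and 163.6 FPKM in WT and 164.0, 163.4 and 149.9 FPKM in G9gl. Mrps16 was at 162.8, 156.3 and 158.6 FPKM in WT and 168.5, 166.9 and 161.0 FPKM in G9gl. In both genes the groups overlapped, and the adjusted p-values were 0.604 and 0.458.

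The least abundant was Mrpl19, at 6.27, 7.08 and 6.37 FPKM in WT and 7.25, 8.62 and 7.04 FPKM in G9gl. At the estimated depth that is 67 to 108 fragments per kilobase in a library, against 2170 to 3186 for Mrps21. Mrpl17 was at 7.85, 8.10 and 8.13 FPKM in WT and 8.41, 9.18 and 9.002 FPKM in G9gl. Mrps22 was at 7.95, 7.68 and 8.96 FPKM in WT and 9.21, 9.76 and 10.2 FPKM in G9gl. In Mrpl17 and Mrps22 every G9gl library was higher, with log2 fold changes of 0.13 and 0.22 and adjusted p-values of 0.321 and 0.117 in limma. Mrps25 was at 10.6, 9.996 and 10.1 FPKM in WT and 9.50, 9.22 and 9.99 FPKM in G9gl, a log2 fold change of -0.09 with an adjusted p of 0.473.

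By subunit, the median log2 fold change was 0.12 for the large subunit and 0.08 for the small subunit, and the share called was nearly the same. The order of these medians turned when the trend over GC content and transcript length was removed. There the large subunit median stood 0.06 above that of all tested genes and the small subunit median 0.07 above it. The large subunit genes summed to 2590, 2477 and 2584 FPKM in WT and 2775, 2922 and 2828 FPKM in G9gl. The small subunit genes summed to 1676, 1585 and 1669 FPKM in WT and 1750, 1789 and 1721 FPKM in G9gl. The ratio of the large sum to the small sum was 1.545, 1.563 and 1.549 in WT and 1.586, 1.633 and 1.643 in G9gl, higher in every G9gl library. Leaving out Mrpl52 alone, chosen after its values were seen, gave 1.455, 1.490 and 1.481 in WT and 1.479, 1.519 and 1.524 in G9gl, which overlapped.

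Symbols and structure disagree for a few members. The Mrps30 and Mrps18a proteins are found in the large subunit, and Mrps36 is better known as part of the 2-oxoglutarate dehydrogenase complex. For a count by structure, Mrps30 and Mrps18a were moved to the large subunit and Mrps36 was left in the small one. Then 6 of 50 large subunit genes, or 12%, and 4 of 27 small subunit genes, or 14.8%, rose, with medians of 0.11 and 0.07. Of all tested genes, 11.8% were called higher. The ratio of the large sum to the small sum by structure was 1.696, 1.747 and 1.718 in WT. In G9gl it was 1.760, 1.815 and 1.802, with no overlap.

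Some proteins of the mitochondrial ribosome were inherited from the bacterial ancestor, and others were added later. Of the 46 genes with a bacterial counterpart 9 rose, or 19.6%, and of the 30 without one only Mrpl52 did, or 3.33%. Among all tested genes 11.8% were called higher. Mrps18a and Mrps18b, though related to Mrps18c, were placed among the 30, and Mrps36 was in neither class. The medians were 0.13 and 0.09, and 40 of 46 and 24 of 30 lay above 0. The difference between these classes was not tested. The 6 genes of the central protuberance, the 6 of the tunnel exit and the 3 of the stalk all lay above 0, with 1 called in each (Mrpl18, Mrpl23 and Mrpl12), and medians of 0.15, 0.14 and 0.14.

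Some ribosome subunits have genes with other names. Those measured were Dap3, Ptcd3, Aurkaip1, Chchd1, Gadd45gip1 and Ict1, of which Ict1 can free stalled ribosomes and Dap3 binds GTP. None of the 6 was called, 5 lay above 0 and their median was 0.14.

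The cytosolic ribosomal protein genes, which encode the ribosome that makes the mitochondrial ribosomal proteins themselves, had higher fold changes. Of 82 tested, 74 were called higher and none lower, with a median log2 fold change of 0.33. Those 74 are 90.2%, against 11.8% of all tested genes. Their sum was 21.3 to 22.4 times that of the mitochondrial set in WT and 24.6 to 25.3 times in G9gl, without overlap. The difference between these lists was not tested gene by gene, and its size depended on the scaling. The cytosolic median stood 0.33 above the median gene and the mitochondrial one 0.11. With quantile normalization these were 0.12 and 0.10, and with the trend over GC content and transcript length removed 0.23 and 0.06. The 74 cytosolic genes called higher were 28, with 1 lower, under quantile normalization, 54 with TPM and 58 with that trend removed. Of all tested genes, 10.2%, 7.21% and 11.3% were called higher in these settings. Without the GC and length trend, 48 members lay above 0 and 29 below.

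**Figure D4:**
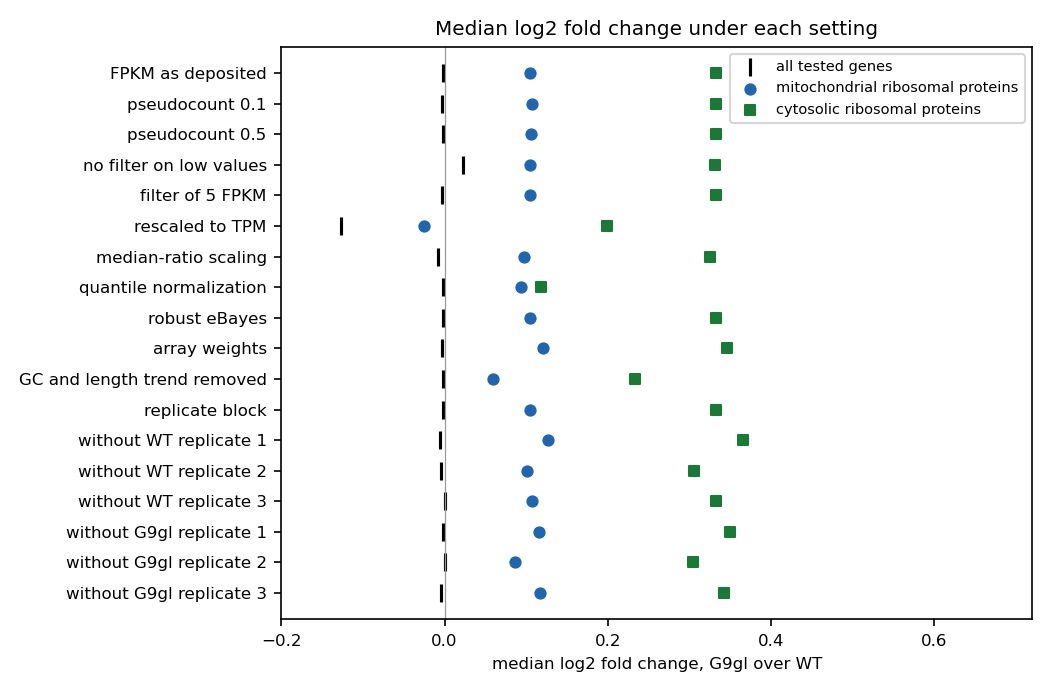
Median log2 fold change, G9gl over WT, of all tested genes, the mitochondrial and the cytosolic ribosomal protein genes under each setting tried. The mitochondrial median lies to the right of the median of all genes in each setting, falls below 0 only with TPM, and comes nearest to the cytosolic one with quantile normalization.

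Genes that build or serve the mitochondrial ribosome lay near the median of all genes. Among 78 of them, 4 rose, or 5.13%, and 1 fell, or 1.28%. Of all tested genes, 11.8% were called higher and 11.6% lower. In this list 43 lay above 0, or 55.1%, against 49.7% of all tested genes, with a median of 0.03. Without WT replicate 1 or G9gl replicate 3, 2 rose, and without WT replicates 2 or 3 or G9gl replicate 2 none fell. Of 27 assembly and RNA-modifying genes, Mtg1, a GTPase that checks the large subunit as it is built, rose from 12.9 to 17.9 FPKM with an adjusted p of 0.00819 in limma. Mettl15, which methylates the small subunit RNA, rose from 3.50 to 5.35 FPKM with an adjusted p of 0.0321, its call lost without WT replicates 1 or 3 or G9gl replicate 3. None of the 16 translation factors and none of the 18 genes for transcription or upkeep of mitochondrial DNA and its RNAs was called, with medians of 0.00 and 0.02.

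Of the 17 mitochondrial aminoacyl-tRNA synthetases, Tars2 (for threonine) rose from 26.8 ± 2.36 to 39.4 ± 1.47 FPKM, adjusted p 0.00108 in limma. Mars2 (for methionine) fell from 14.8 to 11.7 FPKM, adjusted p 0.0445. Lars2 (for leucine) was called higher, at 7328 ± 32.4 FPKM in WT and 8307 ± 491 FPKM in G9gl with an adjusted p of 0.0415, and its sign turned with quantile normalization. The Mars2 call held without G9gl replicate 3 and the Lars2 call without G9gl replicate 1, and leaving out any of the other libraries ended each. The WT mean of the other 16 synthetases ran from 3.67 to 26.8 FPKM, far below that of Lars2. In stretches of 50 identical bases, Lars2 shares 52 bases, or 1.3% of its longest transcript, with the antisense gene Gm15564. Whether the Lars2 value comes from Lars2 message alone was not tested, so its call may not describe that message. Of 13 symbols for messages encoded by the mitochondrial genome, 0 were found among the listed genes, so these messages could not be analysed here.

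The import machinery, which carries every member into the mitochondrion, lay mostly above 0. Of 26 tested genes, 4 rose, or 15.4%, close to the 11.8% of all tested genes called higher. In this list 23 lay above 0, or 88.5%, against 49.7% of all tested genes, and the median was 0.16. Timm10, a carrier chaperone of the space between the membranes, rose from 40.6 to 56.7 FPKM with an adjusted p of 0.00842 in limma. Timm23, the channel of the inner membrane, rose from 118.6 to 139.7 FPKM with an adjusted p of 0.0115. Mipep, a peptidase that trims imported proteins, and Tomm5, of the outer membrane pore, had adjusted p-values of 0.0415 and 0.0452. Leaving out any library but G9gl replicate 3 ended the Mipep call, and leaving out any but WT replicate 3 or G9gl replicate 1 ended that of Tomm5.

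The promoters of the members were searched for letters bound by known regulators of genes for mitochondrial proteins. RefSeq promoter entries (GRCm38.p6, 250 bases before to 50 after the start) matched 68 of the 77 members by symbol, and both strands were searched. Shown are 100 bases of 5 of them, chosen to include the genes with the largest rise in each subunit, a gene just below the threshold, a gene with 2 ETS matches, and Mrps24, low in fold change but not in level, with 2 overlapping SP1 matches. Capitals mark the match: ETS in Mrpl52 and Mrpl43, NRF1 in Mrps9 and Mrpl45, SP1 in Mrps24.
Mrpl52, chr14:54426814-54426913, plus strand: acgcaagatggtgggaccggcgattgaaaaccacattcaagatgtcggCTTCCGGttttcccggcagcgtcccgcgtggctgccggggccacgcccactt
Mrps9, chr1:42851138-42851237, plus strand: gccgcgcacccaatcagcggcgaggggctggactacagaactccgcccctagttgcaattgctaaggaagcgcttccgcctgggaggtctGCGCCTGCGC
Mrpl45, chr11:97315621-97315720, plus strand: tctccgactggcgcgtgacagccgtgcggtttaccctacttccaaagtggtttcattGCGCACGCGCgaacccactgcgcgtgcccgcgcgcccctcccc
Mrpl43, chr19:45006438-45006537, minus strand: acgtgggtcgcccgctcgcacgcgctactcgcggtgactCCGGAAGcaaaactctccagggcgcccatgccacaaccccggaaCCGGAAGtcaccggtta
Mrps24, chr11:5707697-5707796, minus strand: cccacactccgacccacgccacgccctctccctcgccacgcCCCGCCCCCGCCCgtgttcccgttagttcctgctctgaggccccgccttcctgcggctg

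The NRF1 motif stood in 13 of the 68 matched members, or 19.1%. It stood in 13.1% of the tested genes with an entry and in 4.6% of all 32851 entries in the table. A gene was counted if any of its listed promoters held the motif, while the share of all 32851 is over single entries, an unlike unit. The ETS core CCGGAAG, read by GABP and its relatives, stood in 25, or 36.8%, against 23.2% and 8.9%. It stood in 41.0% of the 61 tested cytosolic ribosomal protein genes with an entry. The YY1 motif stood in 5, or 7.4%, against 2.9% and 0.9%. The E-box CACGTG, read by Myc, stood in 5, or 7.4%, against 12.6% and 7.2%, and the SP1 letters GGGCGGG in 29, or 42.6%, against 52.5% and 25.6%. A match says only that the motif's letters are in the window. The median log2 fold change of members with and without a motif was 0.14 and 0.09 for NRF1, 0.11 and 0.09 for ETS, 0.17 and 0.09 for the E-box, 0.08 and 0.13 for SP1 and 0.06 and 0.10 for YY1. Of the 8 called members with a promoter entry, 4 held the SP1 letters, 2 the NRF1 motif, 2 the ETS core, and 0 the E-box or the YY1 motif.

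Among 10 genes for such regulators, Myc was called higher, with means of 48.6 ± 3.48 FPKM in WT and 72.7 ± 22.3 FPKM in G9gl and an adjusted p of 0.0471 in limma, a call lost when any one WT library was left out. Its G9gl values were 98.4, 61.5 and 58.2 FPKM, and without the high replicate 1 its log2 fold change was 0.30 (adjusted p 0.0217) in place of 0.53. Esrra, a nuclear receptor that drives genes of energy metabolism, fell from 10.2 ± 0.667 to 7.54 ± 1.04 FPKM, a log2 fold change of -0.40 with an adjusted p of 0.0289, lost without WT replicates 1 or 2 or G9gl replicates 2 or 3. Nrf1 and Gabpa, whose factors read the NRF1 and ETS motifs, were at 42.8 and 39.9 FPKM and at 13.8 and 12.4 FPKM, with adjusted p-values of 0.305 and 0.307.

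Many members share a promoter region with a gene on the other strand. A protein-coding gene started within 1000 bases in the opposite direction for 33 of the 77 members, or 42.9%, against 18.8% of 9363 tested protein-coding genes. Mrpl46 and Mrps11, one of each subunit, are such a pair, with starts 412 bases apart. The partner gene was tested in 30 cases and called higher in 7, lower in none. Of all tested genes 11.8% were called higher and 11.6% lower, and the difference was not tested. The 30 cases count the pair of Mrpl46 and Mrps11 in both directions. In 14 of the 30 both genes lay above 0, in 12 only the member, in 3 only the partner and in 1 neither. Only for Mrpl18 were both called, with Tcp1, a subunit of the cytosolic chaperonin, at 77.5 and 88.3 FPKM, a log2 fold change of 0.19 and an adjusted p of 0.0276 in limma. Wdfy1, which starts 125 bases from Mrpl44, rose from 4.87 to 15.2 FPKM, a log2 fold change of 1.46 with an adjusted p of 1.7e-05, while Mrpl44 had means of 30.3 FPKM in WT and 30.3 FPKM in G9gl. Members with such a partner had a median log2 fold change of 0.10, and those without one 0.12.

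Because the libraries keep no strand, exons shared with a neighbour make some values uncertain. In 27 members some exon bases were shared with a gene on the opposite strand. The largest such share was in Mrps25, where Nr2c2, itself called lower, covers 69.8% of the annotated exon bases. Among the called members, Mrps7 shares 119 bases, or 5.7%, with Mif4gd, which rose from 332 to 395 FPKM with an adjusted p of 0.0332 in limma. Mrps7 also shares 127 bases, or 6.1%, with Gga3. Mrpl12 shares 200 bases, or 13.1%, with Gm16755, Mrpl18 141 bases, or 10.1%, with Tcp1, and Mrpl13 330 bases, or 4.2%, with Mtbp. Mrps6 shares 305 bases, or 19.9%, with Gm49711 and 159 bases, or 10.4%, with Slc5a3, both on its own strand. In addition, 23 members share stretches of 50 identical bases, covering 100 bases or more, with an annotated pseudogene. Among them are 4 of the called members, Mrpl12, Mrpl13, Mrpl18 and Mrpl23. For Mrpl13 this is only 105 bases, or 1.7% of its longest transcript. It shares as much or more with genes that are not pseudogenes, such as Map4 (105 bases) and Nip7 (144 bases), so this need not be a copy of Mrpl13. How fragments were divided between such genes is not given in the sources used here.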

How the data were processed

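RNA was sequenced from 6 libraries, 3 WT and 3 G9gl, grouped by the labels. Per the submitters' processing notes the authors used Cufflinks 2.2.1, Bowtie2 2.2.3, TopHat2 2.0.13, SAMtools 0.1.19 and the build mm10, with no order or settings stated. The deposited values are FPKM per gene and library, with no counts, so depth could only be estimated. Members and gene lists were chosen with earlier results of these data known.

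Log2(FPKM + 1) was fitted by genotype in limma 3.58.1 (R 4.3.3; lmFit, eBayes with a mean-variance trend) for genes that reached 1 FPKM in 3 or more libraries, which left 10122 genes. P-values are two-sided, adjusted by Benjamini-Hochberg over these genes, with calls at an adjusted p under 0.05. Fold changes on this scale understate those of low genes. Lists are described by counts and medians with no test. Named with values in each library were the called members and the 4 highest and 4 lowest in level, and others at the threshold or changed by a setting; other lists gave up to 4 called genes by smallest p. Positions, overlaps, GC and length come from GENCODE vM21 (GRCm38, the assembly of mm10), which matched all members, and promoters from RefSeq. The procedure was tested on simulated data. Alternatives changed the pseudocount, filter, scaling, variance model, GC and length trend, replicate block and libraries used.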

Additional observations from a re-analysis of the deposited data

How the results depend on the processing

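The median log2 fold change of the members stayed above that of all tested genes in every setting tried, by 0.06 with the GC and length trend removed and by 0.09 to 0.13 when single libraries were left out. The count of 10 members called higher was 5 with no filter on low values and 3 with TPM, and 5 to 13 when single libraries were left out. Of all tested genes, 11.8% were called higher in the main fit, 5.07% with no filter and 7.21% with TPM. That share was 8.17% to 11.2% when single libraries were left out. Members called lower, 0 on the FPKM scale, numbered 3 with TPM and 1 (Mrps18c) with the GC and length trend removed. Of all tested genes, 24.6% were called lower with TPM and 11% with that trend removed. Large subunit members called higher (6) numbered 3 with no filter and 1 with TPM, with 3 to 9 without single libraries, and large subunit members called lower 2 with TPM. Small subunit members called higher (4) numbered 2 with no filter, 2 with TPM and 2 with the GC and length trend removed, with 2 to 4 without single libraries, and those called lower 1 with TPM and 1 with that trend removed. Factor genes called higher (4) numbered 2 with no filter, 2 with TPM and 2 with the replicate block, with 2 to 5 without single libraries. Factor genes called lower (1) numbered 0 with no filter, 2 with a filter of 5 FPKM, 7 with TPM, 0 with quantile normalization, 2 with robust eBayes and 3 with array weights, with 0 to 1 without single libraries. With Lars2 left out, chosen after its values were seen, 3 factor genes were called higher. Lars2 turned to a log2 fold change of -0.0335 with quantile normalization (adjusted p 0.635 in limma). No filter tests 19079 genes in place of 10122; for the other changes the cause was not tested.

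Same-numbered libraries were not paired by the labels, and the correlations of their deviations were 0.10, -0.07 and 0.02. With the replicate block 8 members were called, 7 of them also called without it, and 1044 of all tested genes were called higher and 988 lower. With 3 libraries a group, the median standard error of 0.08 was close in size to the median member log2 fold change of 0.10. Low members such as Mrpl19 rest on fewer fragments than high ones.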
